A study of Homo sapiens with 16 samples.

Results

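The 10 tubulin isotypes TUBA1A, TUBA1B, TUBA1C, TUBA4A, TUBB, TUBB2A, TUBB2B, TUBB3, TUBB4A and TUBB6 were followed with RNA-Seq in 2 melanoma cell lines that resist BRAF inhibition (BRAFi) and were treated with corin. They are 10 of the 34228 genes in the table of counts and were matched by symbol, all 10 being found. They were selected on their counts in these same 8 libraries, so their levels and differences are given as a description without p-values. Of the 10, 6 are counted here as neuronal isotypes (TUBA1A, TUBA4A, TUBB2A, TUBB2B, TUBB3 and TUBB4A) and 4 as general isotypes (TUBA1B, TUBA1C, TUBB and TUBB6).

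The 8 libraries fall into 4 groups of 2. The 451Lu-R line has the MITFhi/AXLlo phenotype and the 1205Lu-R line the MITFlo/AXLhi phenotype, and each received 2.5 μM corin or the vehicle DMSO for 24 hours. Corin joins an LSD1 and an HDAC inhibitor in a single molecule that acts on the CoREST repressor complex. Both lines had been made resistant by rising doses of the BRAF inhibitor PLX4032 and were cultured in it at 5 μM. The DMSO groups share this history with the corin groups. During the 24 hours of treatment the cells of all 8 libraries received no PLX4032. The sources used here do not say whether the 2 libraries of a group came from separate cultures, so the spread between them may be technical.

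Microtubules are hollow polymers of alpha- and beta-tubulin dimers, and each subunit is made from a small family of genes, the isotypes. TUBA1B, TUBA1C and TUBB are expressed in most dividing cells, TUBB6 is widespread outside the nervous system, and TUBB3, TUBB2A, TUBB2B, TUBB4A, TUBA1A and TUBA4A are best known from neurons and brain. TUBB3 is the class III beta-tubulin used as a marker of neurons, and melanocytes, which also come from the neural crest, and melanomas can express it. The isotypes differ mostly in their acidic C-terminal tails, where enzymes add or remove tyrosine, glutamate and other groups.

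Depth was similar, with 9516687 to 11797788 estimated counts per library, of which the 10 isotypes took 0.492% to 0.592%. The melanocyte lineage list (MITF, SOX10, PMEL, MLANA, TYR, TYRP1, DCT and S100B) summed to 13654 to 13727 CPM (counts scaled to a library total of 1000000) in 451Lu-R with DMSO and to 8.29 to 8.56 CPM in 1205Lu-R with DMSO, where SOX10, TYR and TYRP1 were at 0. With corin the sums were 11702 to 11748 CPM and 23.2 to 26.5 CPM, SOX10 and TYR still being at 0 in 1205Lu-R. In 451Lu-R the list did not move as 1: the mean of PMEL, the bulk of the sum, was 8437 CPM with DMSO and 7226 CPM with corin, that of MITF 793 and 287 CPM, that of SOX10 758 and 234 CPM, and that of DCT 1668 and 2675 CPM. The AXL-high list (AXL, NGFR, EGFR, ZEB1, TWIST1 and WNT5A) went from 23.0 to 23.1 CPM with DMSO to 405 to 412 CPM with corin in 451Lu-R, and from 1326 to 1339 CPM to 880 to 893 CPM in 1205Lu-R. Its members went opposite ways. The mean of NGFR was 1.06 CPM with DMSO and 351 CPM with corin in 451Lu-R, where AXL itself had a mean of at most 2.40 CPM. In 1205Lu-R NGFR was also higher with corin (5.86 against 202 CPM), while AXL (962 against 476 CPM) and WNT5A (194 against 37.5 CPM) were lower.

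The members are scattered over the genome, all of them protein-coding and each with 4 exons in its canonical transcript (coordinates of GENCODE 44, hg38). On chromosome 12 sit 3 alpha-tubulin genes close together, TUBA1B at chr12:49127782-49131397 and TUBA1A at chr12:49184686-49189080 on the minus strand and TUBA1C at chr12:49188736-49274600 on the plus strand. TUBA4A lies at chr2:219249710-219277902 on the minus strand. Chromosome 6 holds the neighbours TUBB2A at chr6:3153497-3157544 and TUBB2B at chr6:3223324-3231730, both on the minus strand, and TUBB at chr6:30717435-30725538 on the plus strand. TUBB3 lies at chr16:89921392-89938761 on the plus strand, TUBB4A at chr19:6494319-6502848 on the minus strand and TUBB6 at chr18:12307669-12344320 on the plus strand.

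The coding sequences are close to each other, which limits how sharply reads can be split between genes. TUBA1A is identical to TUBA1B at 97.2% and to TUBA1C at 95.9% of aligned coding bases, and TUBA4A to these 3 at 84.4% to 85.7%. TUBB2A and TUBB2B are identical at 98.2% and TUBB and TUBB3 at 81.8%. Of the 31-base words in the canonical transcript, 36.2% occur in no other gene's transcripts for TUBA1A, 49.45% for TUBA1C, 57.1% for TUBB, 30.96% for TUBB2A, 43.7% for TUBB2B, 57.8% for TUBA4A, 60.3% for TUBB4A and 93.2% for TUBB6. TUBA1B has 6.57% by that count and 27.8% once overlapping genes are set aside, and it shares 50.03% of its words with TUBA1A. TUBB3 has 6.0% by that count and 79.0% once overlapping genes are set aside, chiefly ENSG00000198211, a protein-coding gene on the same strand that shares its exons. That gene held 4.60 and 23.6 counts with DMSO and 60.5 and 36.5 counts with corin in 451Lu-R and 0 in all 1205Lu-R libraries, against 1915 to 9976 counts for TUBB3 itself. Values of TUBA1A, TUBA1B and TUBA1C, and of TUBB2A and TUBB2B, are therefore less certain one by one than as sums. The 20 tubulin pseudogenes in the table took counts equal to 0.00650% to 0.191% of those of the 10 isotypes, and none reached 10 CPM.

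The promoters of the 6 neuronal isotypes are shown because most of these genes were higher with corin in both lines while 2 near-identical coding sequences, TUBB2A and TUBB2B, were not alike in 451Lu-R. Each sequence is the 250 bases before the first base of the canonical transcript, 5′ to 3′ on the gene's own strand, from RefSeq (GRCh38.p14). Capitals mark GGGCGG, the GC box core bound by Sp1-type factors, and CCAAT, the CCAAT box, each on either strand (CCGCCC and ATTGG in reverse).
TUBA1A, chr12:49189081-49189330, minus strand: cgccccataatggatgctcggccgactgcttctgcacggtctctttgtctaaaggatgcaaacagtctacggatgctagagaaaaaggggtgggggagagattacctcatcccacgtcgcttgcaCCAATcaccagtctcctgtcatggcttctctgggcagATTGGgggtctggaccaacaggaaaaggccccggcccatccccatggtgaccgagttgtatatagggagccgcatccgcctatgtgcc
TUBA4A, chr2:219253919-219254168, minus strand: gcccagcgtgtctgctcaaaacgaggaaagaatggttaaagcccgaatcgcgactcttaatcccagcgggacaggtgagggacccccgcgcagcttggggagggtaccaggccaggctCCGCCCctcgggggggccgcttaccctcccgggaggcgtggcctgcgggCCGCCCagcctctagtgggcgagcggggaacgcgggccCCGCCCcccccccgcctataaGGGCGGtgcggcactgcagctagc
TUBB2A, chr6:3157545-3157794, minus strand: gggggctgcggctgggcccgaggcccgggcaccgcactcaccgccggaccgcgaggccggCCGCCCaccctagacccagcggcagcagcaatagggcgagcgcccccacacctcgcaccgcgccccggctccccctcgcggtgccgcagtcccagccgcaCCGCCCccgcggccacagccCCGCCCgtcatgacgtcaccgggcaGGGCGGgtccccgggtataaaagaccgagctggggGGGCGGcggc
TUBB2B, chr6:3227654-3227903, minus strand: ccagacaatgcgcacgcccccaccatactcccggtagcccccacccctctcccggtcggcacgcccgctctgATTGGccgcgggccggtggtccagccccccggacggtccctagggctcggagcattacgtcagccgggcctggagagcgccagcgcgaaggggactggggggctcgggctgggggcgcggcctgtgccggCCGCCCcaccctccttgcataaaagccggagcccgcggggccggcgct
TUBB3, chr16:89923092-89923341, plus strand: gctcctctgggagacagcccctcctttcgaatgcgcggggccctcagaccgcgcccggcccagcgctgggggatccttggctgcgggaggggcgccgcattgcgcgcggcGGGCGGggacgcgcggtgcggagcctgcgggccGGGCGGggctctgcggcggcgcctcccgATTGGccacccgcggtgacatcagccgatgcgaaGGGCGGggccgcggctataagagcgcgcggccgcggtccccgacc
TUBB4A, chr19:6502310-6502559, minus strand: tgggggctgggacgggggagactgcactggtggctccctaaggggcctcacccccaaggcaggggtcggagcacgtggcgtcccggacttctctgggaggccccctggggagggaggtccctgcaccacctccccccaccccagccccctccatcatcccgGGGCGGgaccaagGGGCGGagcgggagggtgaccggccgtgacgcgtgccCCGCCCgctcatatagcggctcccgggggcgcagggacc

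GGGCGG occurred 4 times in the TUBA4A window, 5 times in TUBB2A, 1 time in TUBB2B, 3 times in TUBB3 and 3 times in TUBB4A, and 0 times in TUBA1A. CCAAT occurred 2 times in TUBA1A and 1 time in each of TUBB2B and TUBB3. The general isotypes' windows at the canonical start, not shown, held these letters too. GGGCGG occurred 3 times in TUBA1B, 2 times in TUBA1C, 1 time in TUBB and 6 times in TUBB6. CCAAT occurred 1 time in each of TUBA1C, TUBB and TUBB6. Of 35116 RefSeq promoter windows of the same length, a set without chromosome 8, 42.6% hold GGGCGG and 32.01% hold CCAAT, counted on both strands with overlapping matches included. Shares of all windows refer to this set. Its median GC content was 58.0%, and that of the 6 windows shown ran from 56.4% (TUBA1A) to 79.2% (TUBB2A). TATAAA, a core promoter element, was found in the TUBB2A window alone among these 6 and is in 10.7% of all windows. CACGTG, the E-box that MITF can bind, was found in the TUBB4A window alone among the 6 and is in 6.34% of all windows. Among the general isotypes it was in the TUBA1C window. GGACAG, a stretch of the site bound by REST, the repressor that recruits CoREST, was found in the TUBA4A window alone among the 6 shown. It is in 17.2% of all windows. Further RefSeq windows of TUBB3 (chr16:89921675-89921924) and TUBB4A (chr19:6502849-6503098), farther from the canonical start and not shown, each held GGACAG 1 time. The windows of TUBB2A and TUBB2B were identical at 48.0% of aligned bases, and those of TUBB2A and TUBB4A at 49.5%. These matches describe letters and not bound sites.

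Per transcript length, the general isotypes TUBB and TUBA1B stood at the top in every group. Levels between genes are given as TPM (counts divided by canonical transcript length and scaled so that each library sums to 1000000). In 451Lu-R with DMSO, TUBB had 2002 ± 42 TPM and TUBA1B 1994 ± 20 TPM (SD, n = 2), and their libraries overlapped. Then came TUBA1C at 306 TPM, TUBB2A at 266 TPM, TUBB3 at 247 TPM, TUBA1A at 207 TPM and TUBB6 at 144 TPM, with TUBB4A at 32.2 TPM, TUBB2B at 4.18 TPM and TUBA4A at 0.151 TPM. No other neighbours in this order overlapped. With corin, TUBA1A moved to the third place at 1178 TPM, TUBB3 to the fourth at 832 TPM, and TUBB4A, at 316 TPM, stood above TUBA1C at 240 TPM, and no neighbours overlapped.

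In 1205Lu-R with DMSO, TUBB had 2653 ± 18 TPM and TUBA1B 2438 ± 12 TPM. TUBB3 took the third place at 556 TPM, next to TUBA1C at 552 TPM, and TUBB6 (262 TPM), TUBB2A (171 TPM) and TUBA1A (105 TPM) followed. TUBB2B had 21.5 TPM, TUBB4A 3.68 TPM and TUBA4A 0.108 TPM. With corin TUBB3 kept the third place at 1218 ± 11 TPM, TUBB2B stood above TUBA1A (164 against 137 TPM), and the lowest places were held by TUBB4A at 88.9 TPM and TUBA4A at 19.3 TPM. No neighbours overlapped in either group of 1205Lu-R, although the lower TUBB3 library with DMSO, at 554 TPM, was close to the higher TUBA1C library at 553 TPM. All these places leave out TUBB4B, a widespread beta isotype outside the 10. Its DMSO libraries averaged 1251 TPM for 1205Lu-R, above TUBB3, and its corin libraries 2733 TPM, above both TUBB and TUBA1B. For 451Lu-R the TUBB4B means were 457 and 562 TPM, below TUBB and TUBA1B.

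**Figure D1:**
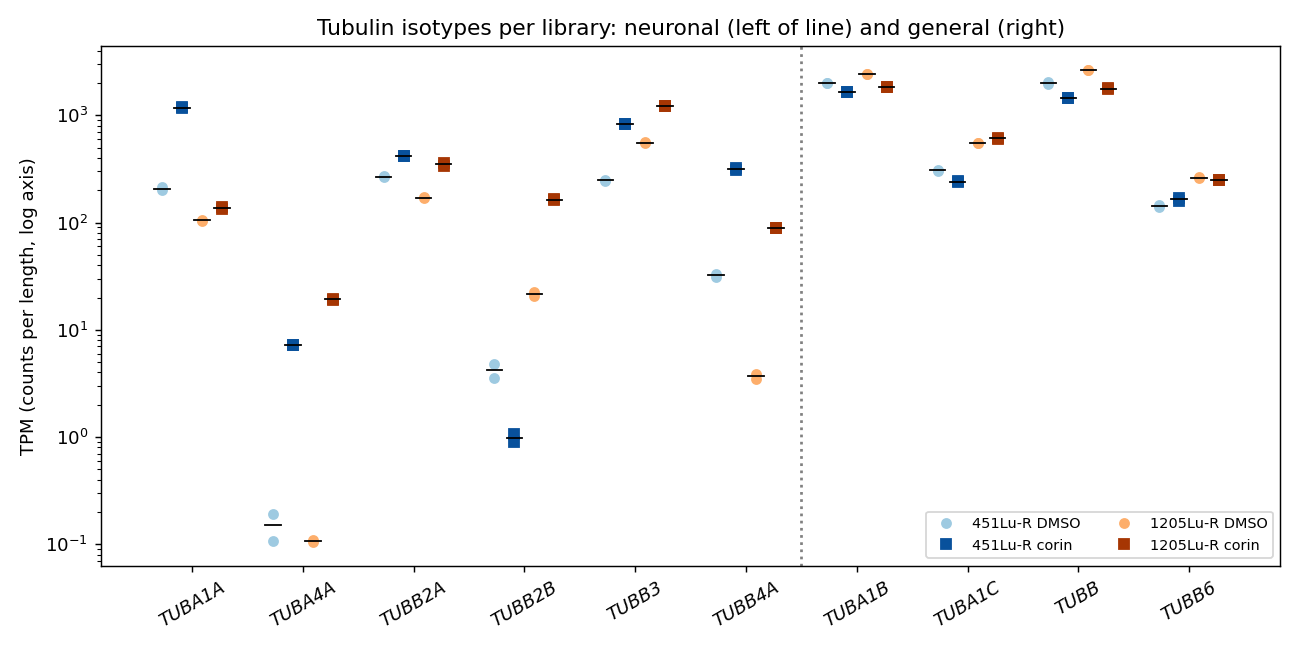
Levels of the 10 isotypes in TPM (log axis) in each of the 8 libraries, circles for DMSO and squares for corin, blue for 451Lu-R and orange for 1205Lu-R, black lines being the mean of 2 libraries. The 6 neuronal isotypes left of the dotted line have means from 0.108 TPM (TUBA4A, 1205Lu-R with DMSO) to 1218 TPM (TUBB3, 1205Lu-R with corin), and those of the 4 general ones lie between 144 TPM (TUBB6) and 2653 TPM (TUBB).

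TUBB3 was higher with corin in both lines. In 451Lu-R it had 194 and 198 CPM with DMSO and 678 and 676 CPM with corin. In 1205Lu-R it had 396 and 398 CPM with DMSO and 884 and 898 CPM with corin. Every corin library lay above every DMSO library of its line, and the 451Lu-R corin libraries lay above the 1205Lu-R DMSO libraries as well. The difference was 1.89 ± 0.03 on the log2 scale (SE of the edgeR fit), 3.70-fold, in 451Lu-R and 1.09 ± 0.03, 2.14-fold, in 1205Lu-R.

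TUBB4A, a beta isotype of brain and myelinating cells, had the largest difference among the beta isotypes in each line. It went from 35.3 and 33.1 CPM to 335 and 351 CPM in 451Lu-R, 10.7-fold (log2 3.42 ± 0.04). In 1205Lu-R it went from 3.71 and 3.30 CPM to 87.0 and 86.5 CPM, 23.5-fold (log2 4.55 ± 0.10). The 1205Lu-R line started 9.05-fold lower with DMSO, and its corin libraries still lay below the corin libraries of 451Lu-R.

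TUBB2A and TUBB2B, the class II pair, parted in 451Lu-R. TUBB2A had 202 and 198 CPM with DMSO and 321 and 319 CPM with corin in 451Lu-R, and 115 and 116 CPM against 234 and 249 CPM in 1205Lu-R. Its difference was 1.71-fold (log2 0.77 ± 0.03) and 1.99-fold (log2 0.995 ± 0.039). TUBB2B, which is prominent in the developing brain, was low in 451Lu-R, with 34.9 and 41.3 counts with DMSO and 9.76 and 9.73 counts with corin, that is 3.20 and 4.27 against 0.828 and 0.973 CPM. In 1205Lu-R it had 18.1 and 16.5 CPM with DMSO and 133 and 136 CPM with corin. The log2 difference was -1.90 ± 0.35 in 451Lu-R against 2.88 ± 0.06 in 1205Lu-R. Every corin library was below DMSO in one line and above it in the other. Summed over both genes, which removes the split of shared reads, the level was 204 ± 1.9 CPM with DMSO and 321 ± 1.8 CPM with corin in 451Lu-R and 133 ± 0.83 and 376 ± 12 CPM in 1205Lu-R.

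TUBA1A, the main alpha isotype of developing neurons, differed by far more in one line than in the other. It had 156 and 167 CPM with DMSO and 935 and 945 CPM with corin in 451Lu-R, which is 6.25-fold (log2 2.64 ± 0.03). In 1205Lu-R it had 72.7 and 73.9 CPM with DMSO and 101 and 96.1 CPM with corin, which is 1.27-fold (log2 0.35 ± 0.05). The log2 response of 1205Lu-R less that of 451Lu-R was -2.33 ± 0.07. TUBA1A, TUBA1B and TUBA1C together had 2073 ± 25 CPM with DMSO and 2534 ± 15 CPM with corin in 451Lu-R, and 2381 ± 6.0 and 2117 ± 9.3 CPM in 1205Lu-R.

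TUBA4A, an alpha isotype of brain, muscle and platelets that is encoded without a C-terminal tyrosine, was near the limit of detection with DMSO. With DMSO 2 and 1 counts were found in 451Lu-R, where corin gave 83.0 and 71.0. In 1205Lu-R the counts were 1 and 1 against 159 and 190. The ratio of summed counts, scaled to depth, was 48.4 with an exact 95% counting interval of 16.3 to 237 in 451Lu-R and 183 with an interval of 50.4 to 1521 in 1205Lu-R. The intervals cover counting error only and are wide because 3 and 2 counts stand behind the DMSO groups. Even with corin TUBA4A held 0.236% and 0.739% of the alpha isotypes' TPM.

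The general isotypes TUBA1B, TUBA1C, TUBB and TUBB6 mostly lay lower with corin. Their log2 differences ran from -0.62 (TUBB in 1205Lu-R) to 0.33 (TUBB6 in 451Lu-R). TUBB4B, a widespread beta isotype outside this set, was higher with corin in both lines (log2 0.44 in 451Lu-R and 1.09 in 1205Lu-R). TUBA1B had 1497 and 1523 CPM with DMSO and 1269 and 1273 CPM with corin in 451Lu-R (log2 -0.15 ± 0.02), and 1655 and 1660 against 1284 and 1284 CPM in 1205Lu-R (log2 -0.44 ± 0.01). TUBB, the main beta isotype of dividing cells, had 2305 and 2382 against 1754 and 1749 CPM in 451Lu-R (log2 -0.32 ± 0.02), and 2778 and 2796 against 1905 and 1917 CPM in 1205Lu-R (log2 -0.62 ± 0.01). Both were lower with corin in every library of either line.

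TUBA1C and TUBB6 went in opposite directions in the 2 lines. TUBA1C had 403 and 401 CPM with DMSO and 320 and 327 CPM with corin in 451Lu-R (log2 -0.22 ± 0.03), and 650 and 651 against 739 and 731 CPM in 1205Lu-R (log2 0.10 ± 0.02). TUBB6 had 128 and 123 CPM with DMSO and 152 and 144 CPM with corin in 451Lu-R (log2 0.33 ± 0.04). In 1205Lu-R TUBB6 had 205 and 206 against 200 and 199 CPM, a log2 difference of -0.12 ± 0.03 that was -0.04 when libraries were scaled by their totals alone. Groups did not overlap for either gene.

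**Figure D2:**
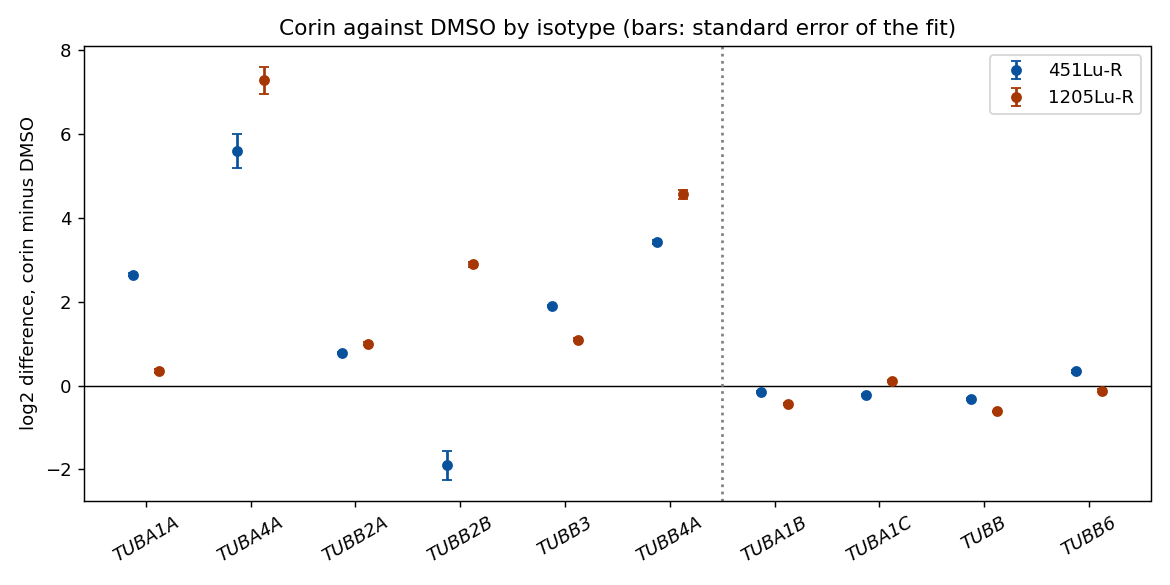
Difference between corin and DMSO for each isotype on the log2 scale, as fitted by edgeR, in 451Lu-R (blue) and 1205Lu-R (red), with bars for the standard error of the fit. The neuronal isotypes left of the dotted line run from -1.90 (TUBB2B in 451Lu-R) to 7.28 (TUBA4A in 1205Lu-R), and the general ones from -0.62 (TUBB in 1205Lu-R) to 0.33 (TUBB6 in 451Lu-R).

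Counts of members past a threshold have to be set against a transcriptome in which most genes moved. At an FDR under 0.05 (edgeR's quasi-likelihood test, Benjamini-Hochberg adjustment), 6 members were higher and 4 lower with corin in 451Lu-R, where 41.3% of the 14530 genes tested were higher and 38.6% lower. In 1205Lu-R 7 were higher and 3 lower, against 40.4% and 37.8% of 14563 genes. With a fold change of 2 or more added, 4 members were higher and 1 lower in 451Lu-R (22.2% and 13.3% of all genes), and 4 were higher and 0 lower in 1205Lu-R (22.0% and 9.8%). The libraries of the groups did not overlap for 10 of 10 members in either line, and they did not for 89.2% of all genes in 451Lu-R and 88.1% in 1205Lu-R. Nothing is read from these counts, since the members were selected with these values known.

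The median log2 difference of the 6 neuronal members was 2.27 in 451Lu-R and 1.99 in 1205Lu-R. For the 4 general members it was -0.18 and -0.28. Over all genes tested the median was 0.03 in each line. The members were selected with these values known, so nothing is read from the medians. TUBB2B in 451Lu-R, at -1.90, went against the neuronal median.

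The make-up of the alpha and beta pools shifted by amounts that depended on the line for alpha. For beta they were close to each other only with TUBB4B left out. In the alpha pool (TUBA1A, TUBA1B, TUBA1C and TUBA4A, in TPM), the neuronal isotypes of 451Lu-R made up 8.06% and 8.49% with DMSO against 38.6% and 38.8% with corin. In 1205Lu-R they made up 3.37% and 3.42% with DMSO and 6.10% and 5.91% with corin. The corin groups were thus 30.4 and 2.61 percentage points higher, where the larger SD of a group was 0.306 and 0.134 points. TUBA1A went from 8.27% to 38.5% of the alpha pool in 451Lu-R. In 1205Lu-R TUBA1A went from 3.39% to 5.27% and TUBA4A from 0.00348% to 0.739%.

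In the beta pool (TUBB, TUBB2A, TUBB2B, TUBB3, TUBB4A and TUBB6), the neuronal isotypes of 451Lu-R made up 20.6% and 20.2% with DMSO against 48.9% and 49.2% with corin. In 1205Lu-R they made up 20.6% and 20.5% with DMSO and 47.1% and 47.6% with corin. The differences were 28.7 and 26.9 percentage points, with a larger group SD of 0.334 and 0.324 points. The isotypes that filled the share were not the same in the lines. TUBB3 went from 9.16% to 26.1% in 451Lu-R and from 15.2% to 31.7% in 1205Lu-R, TUBB4A from 1.20% to 9.91% and from 0.100% to 2.32%, and TUBB2B from 0.155% to 0.0308% and from 0.587% to 4.26%. TUBB held 74.3% with DMSO against 45.8% with corin, and 72.3% against 46.2%. Its own level was lower as well, at 2002 against 1459 TPM in 451Lu-R and 2653 against 1773 TPM in 1205Lu-R.

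The size of the beta share, and how close the lines are in its difference, depend on whether TUBB4B, a widespread beta isotype outside the 10, is counted. With TUBB4B among the general isotypes, the neuronal share was 17.4% with DMSO and 41.7% with corin in 451Lu-R. The 1205Lu-R line had 15.3% against 27.7%, a smaller difference of 12.4 points. TUBB4B alone made up 14.5% of that wider pool with DMSO against 14.995% with corin in 451Lu-R, while for 1205Lu-R these values were 25.4% and 41.6%. In TPM, the alpha pool was 2507 ± 28 with DMSO and 3061 ± 15 with corin in 451Lu-R, while 1205Lu-R had 3095 ± 16 and 2606 ± 14. The beta pool without TUBB4B was 2695 ± 36 against 3187 ± 4.1 in 451Lu-R, while 1205Lu-R had 3667 ± 22 against 3840 ± 32. In bulk RNA, fewer cells with an isotype and less of its RNA per cell cannot be told apart.

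**Figure D3:**
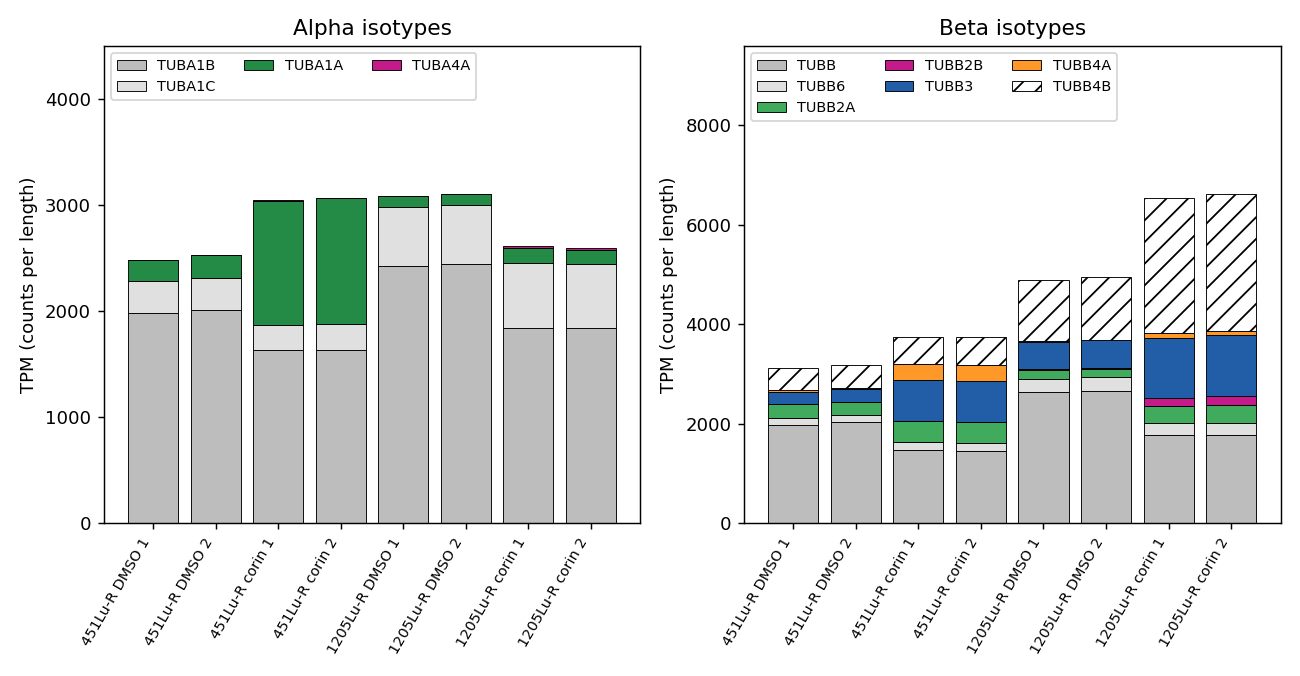
Stacked TPM of the alpha isotypes (left) and beta isotypes (right) in each of the 8 libraries, both axes starting at 0, with general isotypes in grey, neuronal ones in colour and TUBB4B, which is not 1 of the 10, hatched. Green TUBA1A widens in 451Lu-R with corin (38.5% of the alpha pool), blue TUBB3 widens in both lines, and hatched TUBB4B takes 41.6% of the wider beta pool in 1205Lu-R with corin.

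Without corin the lines already differed in their isotypes. TUBB3 was 2.18-fold higher in 1205Lu-R than in 451Lu-R with DMSO (log2 1.12 ± 0.03) and TUBB2B 5.03-fold higher (log2 2.33 ± 0.17). TUBA1A was 2.04-fold lower (log2 -1.03 ± 0.05), TUBB2A 1.62-fold lower (log2 -0.69 ± 0.04) and TUBB4A 9.05-fold lower (log2 -3.18 ± 0.13). The 4 general isotypes were higher in 1205Lu-R by 0.24 (TUBA1B) to 0.82 (TUBB6) on the log2 scale. TUBA4A was too low to be tested there. Of the 9 members tested 9 passed an FDR of 0.05, against 82.5% of 14104 genes, and nothing is read from that count.

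The response to corin differed between the lines. Taken as log2 response of 1205Lu-R less that of 451Lu-R, the difference was 4.74 ± 0.29 for TUBB2B, 1.09 ± 0.16 for TUBB4A, -0.83 ± 0.04 for TUBB3, 0.18 ± 0.05 for TUBB2A, -0.33 ± 0.02 for TUBA1B and -0.34 ± 0.01 for TUBB. For TUBA4A it was 1.66 ± 1.11, an error as wide as its few DMSO counts allow. The interaction term passed an FDR of 0.05 for 9 of 10 members, against 49.7% of the 16062 genes tested, a count from which nothing is read. The corin comparison of each line has its own DMSO libraries.

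Genes outside the 10 isotypes were tested with edgeR over all genes. Their lists were drawn up with earlier results of these data known, so their p-values are no independent evidence. The counts of a list stand beside the shares of all genes tested, and nothing is called particular to a list. Of the 12 other tubulin genes listed, 451Lu-R had 5 risen of 5 tested, 1205Lu-R had 5 risen of 6 tested, and 0 fell in either, against 41.3% and 40.4% higher among all genes. With all 8 libraries in one fit, where TUBA8 was tested as well, 1 fell in 451Lu-R. Their median log2 fold change was 0.48 and 1.20. TUBB4B rose in 451Lu-R from 330 and 335 CPM to 418 and 421 CPM (log2 0.44 ± 0.02, adjusted p = 2.66e-12) and in 1205Lu-R from 813 and 820 to 1816 and 1845 CPM (log2 1.09 ± 0.02, adjusted p = 6.97e-23). The 2 responses of TUBB4B differed by 0.62 ± 0.03 (adjusted p of the interaction = 2.29e-12).

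Of the gamma-tubulins, which start microtubules at the centrosome, TUBG1 rose in 451Lu-R by 0.30 ± 0.05 (adjusted p = 1.95e-05) and in 1205Lu-R by 0.37 ± 0.04 (adjusted p = 2.22e-08). TUBG2, the gamma-tubulin of brain, rose by 1.85 ± 0.15 in 1205Lu-R (adjusted p = 3.71e-10). In 451Lu-R TUBG2 rose by 0.48 ± 0.14 (adjusted p = 0.00348), a call lost in DESeq2 (adjusted p = 0.0554) and without corin replicate 1 (log2 0.27, adjusted p = 0.133). TUBE1, epsilon-tubulin of the centriole, rose by 1.31 ± 0.20 in 1205Lu-R (adjusted p = 5.59e-06). In 451Lu-R it rose by 0.56 ± 0.19 (adjusted p = 0.0115), a call lost in DESeq2 (adjusted p = 0.140), without DMSO replicate 2 (log2 0.45, adjusted p = 0.0814) and without corin replicate 1 (log2 0.48, adjusted p = 0.0861). TUBD1, delta-tubulin, rose by 0.81 ± 0.13 in 451Lu-R (adjusted p = 1.29e-05), while in 1205Lu-R its fold change of 0.36 ± 0.17 did not pass (adjusted p = 0.0602), though it did without DMSO replicate 1 (log2 0.53, adjusted p = 0.0266), with libraries scaled by their totals alone (log2 0.44, adjusted p = 0.0254) and with a replicate block (log2 0.37, adjusted p = 0.0402).

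TUBA8, an alpha isotype of testis and muscle, was detected with corin in 1205Lu-R (29 and 39 counts) and at 0 with DMSO, at least 23.8-fold higher against a floor of 3 counts over the DMSO group (adjusted p = 3.02e-08). In 451Lu-R it had 7 and 0 counts with DMSO and 0 with corin and was not tested. TUBA3C, TUBA3D, TUBA3E, TUBAL3, TUBB1 and TUBB8, most of them germline or blood isotypes, had at most 9 counts in any library and were not tested.

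Of 19 microtubule-associated proteins and stathmins tested in 451Lu-R, 14 rose and 3 fell with a median log2 fold change of 2.34, and of 17 in 1205Lu-R, 9 rose and 7 fell with a median of 0.39, both medians being the same with genes at 0 set to their bound. All genes tested gave 41.3% higher and 38.6% lower in 451Lu-R, while for 1205Lu-R these shares were 40.4% and 37.8%. MAP2, the dendritic microtubule-associated protein, rose from 9.45 and 8.90 CPM to 182 and 183 CPM in 451Lu-R (log2 4.41 ± 0.06, adjusted p = 1.14e-21). In 1205Lu-R MAP2 rose from 5 and 2 counts to 894 and 1002 counts (log2 8.03 ± 0.16, adjusted p = 3.05e-21). STMN1, stathmin, which binds free tubulin dimers, fell by 1.07 ± 0.03 in 451Lu-R (adjusted p = 3.78e-17) and fell by 0.47 ± 0.03 in 1205Lu-R (adjusted p = 8.88e-12).

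The neuronal stathmin STMN2 had 0 counts with DMSO and 113 and 79 counts with corin in 451Lu-R, at least 60.4-fold higher (adjusted p = 4.25e-11). In 1205Lu-R it had 0 with DMSO and 8 and 16 counts with corin and was not tested. STMN4, another neuronal stathmin, had 0 counts with DMSO in both lines and was at least 10.4-fold higher with corin in 451Lu-R (adjusted p = 4.98e-06) and at least 26.6-fold higher in 1205Lu-R (adjusted p = 1.64e-08). STMN3, a stathmin at a far higher level, went the other way. Its means were 122 CPM with DMSO and 105 CPM with corin in 451Lu-R, and 435 against 311 CPM in 1205Lu-R. MAP6, which stabilises microtubules against cold, was at 0 with DMSO in 451Lu-R and at least 17.3-fold higher with corin (adjusted p = 2.51e-07), and in 1205Lu-R it rose by 2.21 ± 0.23 (adjusted p = 1.21e-08). MAP7D1 fell by 0.27 ± 0.04 in 451Lu-R (adjusted p = 1.33e-06) and by 0.46 ± 0.04 in 1205Lu-R (adjusted p = 1.05e-10). MAP7D3 fell by 0.80 ± 0.08 (adjusted p = 2.6e-09) and DCLK2 fell by 0.81 ± 0.24 (adjusted p = 0.00404) in 1205Lu-R. This DCLK2 call was lost in DESeq2 (adjusted p = 0.0534) and without DMSO replicate 1 (log2 -0.49). In 451Lu-R DCLK2 rose by 0.66 ± 0.23 (adjusted p = 0.0126). That call was lost in DESeq2 (adjusted p = 0.144), without DMSO replicate 1 (log2 0.58) and without corin replicate 2 (log2 0.60).

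The summed level of a list of neuron markers was higher with corin, through a few of its genes. The list (SNAP25, SYT1, RBFOX3, ELAVL3, ELAVL4, NEFL, NEFM, GAP43, SYP and MAP2) summed to 20.6 to 22.9 CPM with DMSO and 244.0 to 244.7 CPM with corin in 451Lu-R, where SYT1, ELAVL3, NEFL, NEFM and GAP43 were at 0 with DMSO and ELAVL3 with corin. MAP2, which is also on the list of microtubule-associated proteins, made up 182 to 183 CPM of that corin sum, and SNAP25, ELAVL4 and NEFM had means of 3.34, 0.747 and 2.77 CPM with corin. In 1205Lu-R the list summed to 44.9 to 45.4 CPM with DMSO and 419.7 to 422.7 CPM with corin, of which NEFL was 298 and 307 CPM and MAP2 93.9 and 90.2 CPM. NEFL already had 39.8 CPM with DMSO. SNAP25 had means of 1.70 CPM with DMSO and 2.09 CPM with corin, NEFM was at 0.045 CPM with corin and ELAVL4 at 0 in both groups. At least 1 CPM was reached by 2 of the 10 markers with DMSO and 7 with corin in 451Lu-R, and by 3 and 7 in 1205Lu-R. The part of these markers in the isotype values was not tested.

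Of 21 genes that fold tubulin (cofactors, CCT chaperonin subunits and prefoldin subunits), 15 fell and 3 rose in 451Lu-R (median -0.26) and 14 fell and 2 rose in 1205Lu-R (median -0.32). Of all genes 38.6% and 37.8% were lower and 41.3% and 40.4% higher, in the same order of lines. PFDN1, a prefoldin subunit, fell by 1.24 ± 0.07 in 451Lu-R (adjusted p = 5.36e-12) and fell by 0.77 ± 0.05 in 1205Lu-R (adjusted p = 1.84e-11). VBP1, another prefoldin subunit, fell by 0.88 ± 0.04 (adjusted p = 2.37e-13) and fell by 0.99 ± 0.05 (adjusted p = 7.82e-14). TBCD, the cofactor that holds beta-tubulin, fell by 0.37 ± 0.04 in 451Lu-R (adjusted p = 3.17e-08) and fell by 0.996 ± 0.048 in 1205Lu-R (adjusted p = 2.8e-14). PFDN6 fell by 0.91 ± 0.12 in 451Lu-R (adjusted p = 1.03e-06) and by 0.65 ± 0.12 in 1205Lu-R (adjusted p = 2.93e-05). TBCE, the cofactor that acts on alpha-tubulin, and TBCEL, its relative, rose in 451Lu-R by 0.44 ± 0.09 (adjusted p = 0.000128) and 0.46 ± 0.09 (adjusted p = 7.68e-05). In 1205Lu-R the 2 that rose, PFDN2 by 0.14 ± 0.05 (adjusted p = 0.00748) and CCT8 by 0.07 ± 0.03 (adjusted p = 0.0396), were not called by DESeq2 (adjusted p = 0.242 and 0.415) or with no filter on low counts (0.140 and 0.578). PFDN2 was also lost without DMSO replicate 2 (log2 0.11, adjusted p = 0.0753) and without corin replicate 2 (log2 0.11, adjusted p = 0.117). CCT8 was lost without DMSO replicate 2 (log2 0.025, adjusted p = 0.544), without corin replicate 1 (log2 0.057, adjusted p = 0.147) and with all 8 libraries in one fit (log2 0.059, adjusted p = 0.109).

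Of the 3 genes that link free tubulin to decay of tubulin mRNA, SCAPER rose by 0.57 ± 0.11 in 451Lu-R (adjusted p = 0.000103), and CNOT11, a subunit of the deadenylase, fell by 0.18 ± 0.06 in 1205Lu-R (adjusted p = 0.00801), a call lost in DESeq2 (adjusted p = 0.0571), with libraries scaled by their totals alone (log2 -0.11, adjusted p = 0.105) and without corin replicate 2 (log2 -0.13, adjusted p = 0.127). Of 9 genes of the gamma-tubulin ring complex, 3 rose and 5 fell in each line, against 41.3% higher and 38.6% lower among all genes in 451Lu-R and 40.4% and 37.8% in the other line. TUBGCP5 rose by 0.85 ± 0.08 in 451Lu-R (adjusted p = 5.33e-09) and by 0.57 ± 0.12 in 1205Lu-R (adjusted p = 0.000267). TUBGCP4 rose by 0.72 ± 0.07 in 451Lu-R (adjusted p = 1.01e-08) and by 0.86 ± 0.06 in 1205Lu-R (adjusted p = 4.69e-11). TUBGCP3 fell by 1.01 ± 0.08 in 451Lu-R (adjusted p = 9e-10) and by 0.91 ± 0.07 in 1205Lu-R (adjusted p = 2.79e-10).

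Of 21 enzymes that modify tubulin tails tested in 451Lu-R, 8 rose and 11 fell (all genes 41.3% and 38.6%), and of 19 in 1205Lu-R, 7 rose and 10 fell (all genes 40.4% and 37.8%). VASH2, which removes the C-terminal tyrosine of alpha-tubulin, rose by 2.73 ± 0.29 in 451Lu-R (adjusted p = 4.6e-08) and by 2.61 ± 0.39 in 1205Lu-R (adjusted p = 3.04e-06). AGTPBP1, which trims glutamate chains, rose by 1.39 ± 0.08 in 451Lu-R (adjusted p = 1.79e-12) and by 3.61 ± 0.13 in 1205Lu-R (adjusted p = 2.46e-16). TTLL12 fell by 0.45 ± 0.06 in 451Lu-R (adjusted p = 3.12e-07) and fell by 1.26 ± 0.05 in 1205Lu-R (adjusted p = 2.09e-16). ATAT1, the alpha-tubulin acetyltransferase, fell by 1.09 ± 0.20 in 451Lu-R (adjusted p = 5e-05). Its value for 1205Lu-R was -0.11 ± 0.29 (adjusted p = 0.744).

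Of 15 plus-end, depolymerising and severing proteins, 451Lu-R had 5 that rose and 8 that fell, and 1205Lu-R had 6 and 8, all genes having the same 41.3% and 38.6%, and 40.4% and 37.8%. MAPRE3 (EB3), the plus-end binder abundant in brain, rose by 1.79 ± 0.09 in 451Lu-R (adjusted p = 1.78e-13) and by 1.32 ± 0.08 in 1205Lu-R (adjusted p = 3.08e-12). CLIP2 rose by 1.92 ± 0.05 (adjusted p = 2.92e-17) and by 0.67 ± 0.04 (adjusted p = 5.1e-13). KIF2C, the mitotic microtubule depolymerase, fell by 1.76 ± 0.06 in 451Lu-R (adjusted p = 5.08e-16), and fell by 0.11 ± 0.04 in 1205Lu-R (adjusted p = 0.0140), a call lost in DESeq2 (adjusted p = 0.0628), with libraries scaled by their totals alone (log2 -0.033, adjusted p = 0.440) and without corin replicate 2 (log2 -0.084, adjusted p = 0.143).

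**Figure D4:**
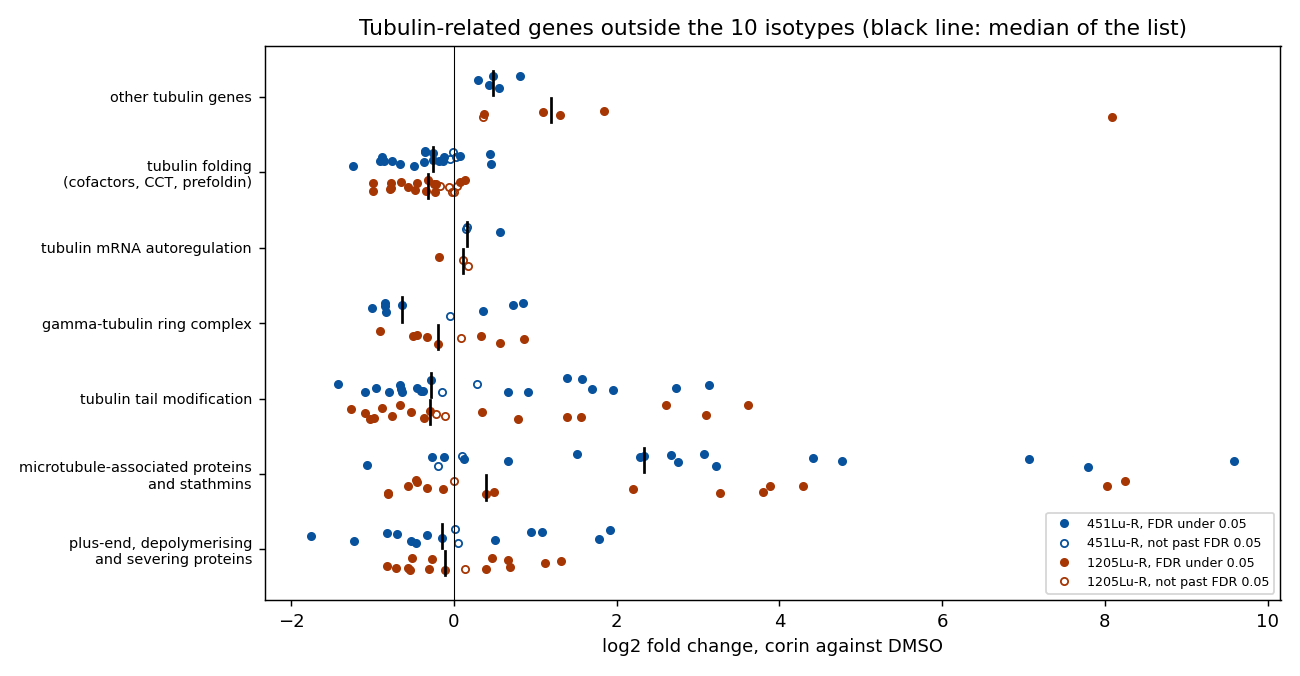
Log2 fold change of corin against DMSO for each tested gene of the 7 lists outside the 10 isotypes (451Lu-R blue, 1205Lu-R red), filled where the edgeR FDR was under 0.05, with a black line at the median of the list. Microtubule-associated proteins and stathmins have medians of 2.34 and 0.39, and the folding list has -0.26 and -0.32; the fitted values of genes at 0 with DMSO (STMN2, STMN4, MAP6 and TUBA8) have no fixed size.

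The genes whose log2 CPM followed TUBB3 most closely over the 8 libraries, among 9999 genes with a mean of at least 10 CPM, were SAV1 (Pearson r = 0.9994), TES (r = 0.9993), CEBPB (r = 0.999), UBE2H (r = 0.9979) and MATCAP2 (r = 0.9969). The libraries form 4 groups, so this ranks genes by how their group levels compare with those of TUBB3. SAV1, for one, had means of 29.3 and 81.9 CPM in 451Lu-R and 52.4 and 102 CPM in 1205Lu-R with DMSO and corin. Among the 8 other isotypes with that mean level TUBB6 had the highest r at 0.5875, and TUBA1B had -0.7133 and TUBB -0.6436. TUBA4A was below 10 CPM on average and was not compared.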

How the data were processed

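RNA-Seq after corin or DMSO in both resistant lines was used. The authors deposited estimated counts per gene, not normalized; the submitters' notes name Trimmomatic and Salmon, and GENCODE 32 was the annotation. Names were taken from GENCODE 44 (34052 of 34228 genes matched). Another 2 tables hold the authors' own comparisons with PLX4032 (fold changes and p-values) and were not used; the 8 PLX4032 samples are not analysed here. The members and gene lists were chosen with earlier results of these data known.

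Estimated counts were rounded and tested with edgeR 4.0.16 in R 4.3.3 (filterByExpr, TMM, glmQLFit and glmQLFTest, 2-sided, Benjamini-Hochberg over all genes tested). Each line was fitted on its 4 libraries, the difference in response as an interaction on 8, and the lines on the 4 DMSO libraries. TMM factors ran from 0.962 to 1.05. An SE is the log2 fold change divided by the square root of F. Promoter letters were counted with Python 3.11.15 and coding sequences aligned with Biopython 1.88. The fit was tested on simulated data.

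Named were the 10 members, all other tubulin genes, and from each list and line at most the 2 genes with the largest rise and the 2 with the largest fall among those past an FDR of 0.05 with a mean of at least 1 CPM, plus the 5 genes most like TUBB3. STMN3 was added outside this rule, beside the other stathmins. Chi-square over degrees of freedom between the counts of replicates was 1.34 to 1.41, so none is the other deposited again. Alternatives were DESeq2 1.42.0, RLE factors, library size only, no filter, all 8 libraries in one fit, a replicate block and leaving out each library; for shares, exon-union length and no length.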

Additional observations from a re-analysis of the deposited data

Results flagged for a closer look

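The responses to corin of several genes differed between the lines, given here as the log2 response of 1205Lu-R less that of 451Lu-R. Among the members, every corin library lay on the opposite side of DMSO in the 2 lines for TUBA1C (0.28), TUBB2B (4.74) and TUBB6 (-0.49). No p-value is given for them, since the members were selected on these values, and those of TUBA1C and TUBB6 are small. Groups that do not overlap were common among all genes tested, at 89.2% for 451Lu-R and 88.1% for 1205Lu-R. The share of all genes that did so in opposite directions is not given, so nothing is called particular to these 3.

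Of the genes outside the members, only those picked for naming were looked at here. The ones below passed an FDR of 0.05 in the interaction term of edgeR, as did 49.7% of the 16062 genes tested. Many listed genes did not pass, and some that passed are not named. The sign compares the lines and does not give the direction within a line. PFDN1, MZT1, STMN1 and KIF2C had negative log2 fold changes in both lines, and CLIP2 and MAPRE3 positive ones. The difference was positive for TUBE1 (0.71), TUBG2 (1.33), TUBB4B (0.62), PFDN1 (0.43), PFDN2 (0.59), MZT1 (0.61), ATAT1 (0.95), AGTPBP1 (2.19), STMN1 (0.57), MAP2 (3.59), KIF2C (1.61) and FIGN (1.66). It was negative for TBCEL (-0.51), TBCD (-0.66), CNOT11 (-0.36), TTLL12 (-0.85), MAP7D1 (-0.23), DCLK2 (-1.51), MAP7D3 (-0.65), CLIP2 (-1.29), MAPRE3 (-0.51) and KIF2A (-0.54). TUBA8 (12.92) and MAP6 (-5.60) were flagged in the same way, but a group of each was at 0 counts, so that the fitted size has no fixed meaning. TUBE1, ATAT1 and TUBA8 were no longer called by DESeq2 (adjusted p = 0.212, 0.158 and 0.179), nor TUBA8 without DMSO replicate 1 of 451Lu-R, the library that held its 7 counts. Calls were also lost for TUBE1 and ATAT1 on leaving out several libraries 1 at a time (log2 0.55 to 0.74 and 0.85 to 0.90), for TUBE1 with a replicate block (log2 0.71, adjusted p = 0.0548), and for TBCEL, CNOT11 and MAP7D1 with library size only (log2 -0.30, -0.15 and -0.015).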

How the results depend on the processing

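Under all alternatives 0 of the members' log2 differences changed sign, and TUBB6 in 1205Lu-R was -0.04 with library size only in place of -0.12. The differences in neuronal share depended on the length used. With exon-union length they were 29.0 (alpha, 451Lu-R), 2.41 (alpha, 1205Lu-R), 24.8 (beta, 451Lu-R) and 21.8 (beta, 1205Lu-R) percentage points, and with counts alone 29.5, 2.32, 26.4 and 24.0 points. With TUBB4B added to the general isotypes, chosen after seeing the data, the beta differences were 24.2 and 12.4 points. CCT8 in 451Lu-R, not past the threshold at 0.03, turned to -0.068 with library size only (adjusted p = 0.0441). Scaling by library size only moved the median of all genes in the interaction from -0.01 to 0.20 and the share of calls that were higher from 45.4% to 64.0%. DESeq2's median over its own wider set of genes was 0.22 in 451Lu-R and 0.29 in 1205Lu-R. Same-numbered libraries deviated together with r = -0.0154 in 451Lu-R and with -0.175 in the other line, so numbers were not taken as pairs. With a replicate block 5950 genes were higher and 5550 lower in 451Lu-R, 5883 and 5535 in 1205Lu-R, 7731 passed in the interaction and 11553 between the lines; pairs crossed in 1205Lu-R gave 5838 and 5496. Other tubulin genes that rose in 451Lu-R were 3 in DESeq2 and 3 without corin replicate 1, in place of 5. The folding genes that rose in 1205Lu-R were 0 in DESeq2 and with no filter, in place of 2. Few counts with DMSO limit TUBA4A in both lines, and few counts with corin limit TUBB2B in 451Lu-R.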
